A study of Mus musculus with 17 samples.

Results

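The SR proteins and the heterogeneous nuclear ribonucleoproteins (hnRNPs) are the main families of RNA-binding proteins that steer pre-mRNA splicing. Their genes were followed through early meiosis in WT and *Nat10*-SKO male germ cells. The members were the rows of the deposited gene table whose symbol was Srsf with a number, or began with Hnrnp or the older form Hnrp. This gave 31 of 23282 genes, 11 Srsf genes and 20 hnRNP genes. The older symbols *Hnrpdl* and *Hnrpll* stand for the genes now named *Hnrnpdl* and *Hnrnpll*.

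RNA was measured in 17 libraries of spermatogonia (SPG), pre-leptotene spermatocytes (PreL) and spermatocytes in leptotene or zygotene (LZ), sorted from C57BL/6 mice (C57BL/6J in the study's methods) by flow cytometry after staining with a Hoechst dye and propidium iodide. The WT groups held 3 SPG, 3 PreL and 2 LZ libraries, with no allele given in the labels. The SKO groups held 3 libraries of each stage and carried 1 floxed and 1 deleted allele of *Nat10*, the N4-acetylcytidine writer, with a *Stra8*-driven GFP-Cre that removes exons 4 and 5 in germ cells before they enter meiosis. No treatment is named for any group, and the ages of the mice in these libraries are not given in the labels. The libraries were made from a small input with the Smart-seq2 method, which primes on poly(A). The study calls the replicates biological, but no label says that the libraries of a group came from separate animals, so the p-values measure the spread between these libraries, which may be technical.

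SR proteins carry RNA recognition motifs and a domain rich in arginine and serine. They bind exonic enhancers, recruit the U1 and U2 ribonucleoproteins to nearby splice sites, and are controlled by phosphorylation. hnRNPs coat nascent transcripts through RNA recognition or KH domains and often silence the sites they cover, although many act in either direction according to where they bind. Both families regulate their own transcripts, many through exons that send the RNA to decay. Male germ cells are known for an unusually large amount of alternative splicing that changes between the mitotic, meiotic and post-meiotic stages.

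The values are the deposited counts after calibration to the ERCC spike-in, external RNA added in a fixed amount. They are shown here divided by 1 size factor per library, computed over all 17 libraries, and are called rescaled values. A gene was called when its adjusted p in the limma test was under 0.05 and the groups differed by more than 2-fold, a log2 fold change beyond 1 in either direction. In each comparison the size factors were those of its own libraries, and the fold changes are on the scale of log2(value + 10).

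Depth was 9885136 to 13820953 recovered reads in each library outside SKO LZ, and 5812380 to 7609420 in SKO LZ. *Nat10* stood at 746 ± 60.3, 705 ± 146 and 635 ± 126 (mean ± SD, rescaled) in WT SPG, PreL and LZ, and at 409 ± 79.8, 277 ± 42.9 and 228 ± 38.4 in SKO, with no overlap in any stage, over counts that cover the whole gene and not the deleted exons alone. Cell type markers also moved with genotype. The summed level of late spermatocyte markers, 10 in the table of 12 listed, was 3117 to 5766 RPM (reads scaled to the library total) in WT LZ and 70.0 to 77.7 in SKO LZ, and all 10 were called lower. That of the 11 spermatid markers was 1313 to 1480 and 49.6 to 55.1, all 11 called lower, with *Acrv1*, *Odf1* and *Catsper1* at 0 in SKO LZ. In PreL, late spermatocyte markers summed to 288 to 1010 in WT and 43.6 to 61.2 in SKO, with *Acr* at 0 in SKO, and spermatid markers to 696 to 1150 and 73.6 to 88.7. In SPG the late spermatocyte markers overlapped and the spermatid markers were apart, at 230 to 451 and 93.5 to 128, with 7 of 10 tested called lower.

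The summed early meiotic markers were higher in every SKO library than in any WT library in SPG, at 3427 to 3908 in WT and 5076 to 5546 in SKO, and in PreL, at 5309 to 6354 and 7462 to 10520. In LZ the order was the reverse, at 6319 to 7313 in WT and 3758 to 5663 in SKO. Of 13 such markers, 0 were called in SPG, 1 was called higher in PreL and 3 lower in LZ. The summed spermatogonial markers stood at 1182 to 1255 in WT and 1488 to 1600 in SKO in SPG. They stood at 1261 to 1374 and 1079 to 1181 in PreL, and overlapped in LZ. Of these 12 markers, 0 were called in SPG, 1 was called higher in PreL, and 3 higher and 1 lower in LZ. Their median log2 fold changes were 0.006, 0.16 and 0.61, so the PreL median was not on the side of the PreL sum.

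Markers of somatic cells were mostly higher in SKO. In SPG, WT and SKO libraries were apart for Leydig cell markers (5.61 to 15.5 and 62.8 to 229), peritubular myoid markers (3.19 to 57.8 and 317 to 614, 7 of 8 called higher), macrophage markers (8.72 to 18.1 and 94.7 to 170, 6 of 9 called higher), Sertoli markers (231 to 272 and 294 to 345) and endothelial markers (0.345 to 1.99 and 2.52 to 6.37). In PreL they were apart for Leydig (6.72 to 18.3 and 40.9 to 466), myoid (10.02 to 34.6 and 44.6 to 183) and endothelial markers (0.560 to 2.74 and 4.01 to 7.19). They overlapped for Sertoli (238 to 270 and 269 to 1392, 4 of 8 called higher) and macrophage markers (2 of 9 called higher). In LZ they were apart for Leydig (23.9 to 73.7 and 80.9 to 233), macrophage (2.39 to 8.05 and 9.81 to 41.5) and myoid markers (21.5 to 26.6 and 50.2 to 116), and overlapped for Sertoli and endothelial markers. Immediate early genes were apart in all 3 stages, at 41.4 to 48.6 and 236 to 478 in SPG, 59.5 to 78.8 and 92.4 to 308 in PreL, and 48.6 to 131 and 212 to 295 in LZ. In these bulk samples, fewer cells of a type and less RNA per cell cannot be told apart. The part of these cells in the results below was not tested.

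The members spanned a 3151-fold range of abundance, with *Srsf12*, near the limit of detection, at its lower end. Levels were compared between genes only as rescaled value per kilobase of transcript, taking the median length of a gene's coding transcripts. The highest mean over the 17 libraries was that of *Hnrnpa2b1*, an hnRNP that binds splicing silencers and transport elements, at 20266 per kilobase. *Srsf2*, an SR protein that activates exons through enhancers rich in G and C, followed at 12523, and *Srsf7*, which also takes part in mRNA export, at 8669. At the other end stood *Hnrnph3* at 73.8, *Hnrnpa1* at 7.30 and *Srsf12*, an SR protein that can act as a repressor, at 6.43 per kilobase.

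*Hnrnpa1* encodes a classical silencing hnRNP that is abundant in most cells, but it was hardly counted here. It had 4, 10 and 3 reads in the WT SPG libraries, 8, 6 and 3 in WT PreL and 5 and 5 in WT LZ. The SKO libraries had 8, 3 and 10 reads in SPG, 7, 8 and 7 in PreL and 1, 7 and 5 in LZ. On the rescaled scale this is 5.37 to 24.8 over the 17 libraries, with the genotypes overlapping in all 3 stages, and *Hnrnpa1* did not reach the mean of 10 reads needed for a test. Of the stretches of 100 bases in the annotated transcript chosen for it, 42.2% were also found in transcripts of 11 other genes. Shares of such stretches given below likewise refer to the transcript chosen for each gene. The authors counted only uniquely mapped reads, so the level of *Hnrnpa1* is uncertain.

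*Srsf12* was also near the limit of detection. Its read counts were 7, 0 and 0 in WT SPG and 0, 0 and 3 in SKO SPG, and 5, 10 and 23 in WT PreL against 1, 3 and 3 in SKO PreL. In LZ its rescaled values were 38.0 and 83.3 in WT and 32.7, 35.4 and 20.9 in SKO, from 27 and 45 and 6, 10 and 5 reads. Both WT LZ libraries lay above the 3 SKO LZ libraries. The gene was tested only in LZ and in the WT step into LZ, and passed in neither (log2 fold change of -0.87 ± 0.50, adjusted p = 0.181 in LZ). All members other than *Hnrnpa1* and *Srsf12* were tested in every comparison.

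The members together took a small and rather even share of each library. It was 1.21% ± 0.08 (SD, n = 3) of all reads in WT SPG, 1.32% ± 0.05 (n = 3) in WT PreL and 0.955% ± 0.067 (n = 2) in WT LZ. The SKO groups, of 3 libraries each, held 1.12% ± 0.02, 1.14% ± 0.02 and 1.01% ± 0.07. The share was thus higher in each WT PreL library (1.27% to 1.37%) than in any SKO PreL library (1.12% to 1.16%), and the genotypes overlapped in LZ. The 100 genes with the highest mean in LZ, *Hnrnpa2b1* among them, were then left out of both the members and the total. The LZ shares of the remaining members no longer overlapped, at 0.899% to 1.01% in WT and 1.21% to 1.28% in SKO. Most of the PreL difference lay in the Srsf genes, at 0.572% ± 0.045 in WT and 0.450% ± 0.014 in SKO, while the hnRNP genes held 0.750% ± 0.020 and 0.689% ± 0.007. The Srsf genes did not move alike. *Srsf2* had the largest PreL log2 fold change, -1.05, with 9044 to 22946 reads in WT and 6846 to 9656 in SKO, and was not called. Relative to other genes, *Srsf5*, *Srsf6*, *Srsf10* and *Srsf11* lay above WT in PreL, and *Srsf1*, *Srsf3*, *Srsf4*, *Srsf7* and *Srsf9* below.

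The first comparison was SKO against WT within each stage, the question of the study's RNA-seq experiment. In SPG, 29 members were tested and none was called, 0 lower and 0 higher, where 2.06% of all genes were called lower and 3.95% higher. At an adjusted p under 0.05 alone, *Srsf2* and *Srsf7* lay below WT and no member above, where 4.84% of all genes lay below and 6.22% above. At an unadjusted p under 0.05 limma gave 3 lower and 0 higher, and edgeR and DESeq2 also called no member. The median log2 fold change was -0.04 over the members and 0.00 over all genes tested. The largest differences were -0.54 for *Srsf2* and 0.32 for *Hnrnph3*.

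In PreL none of 29 members was called by limma, 0 lower and 0 higher, against 5.83% of all genes called lower and 5.32% higher. At an unadjusted p under 0.05 there were 11 lower and 3 higher, and edgeR and DESeq2 each called 1 lower, *Srsf2*. At an adjusted p under 0.05 alone, 5 members lay below WT by less than 2-fold, namely *Srsf3*, *Srsf9*, *Hnrnpd*, *Hnrpdl* and *Hnrnpab*, and *Hnrnpc* lay above, where 10% of all genes lay below and 7.87% above at that threshold. The members' median log2 fold change was -0.18 and that of all genes 0.04. These signs hold relative to other genes: on the ERCC-calibrated scale without rescaling the median of all genes was shifted to 0.73, the members' median was 0.54, and 16 of 29 members changed sign.

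In LZ, 2 of 30 members were called lower and 4 higher, where 25.8% of all genes were called lower and 13.4% higher. The members called higher were *Hnrnph2*, *Hnrnpa3*, *Hnrnpa2b1* and *Hnrnpab*, and those called lower *Hnrnph3* and *Hnrnpul1*. A further 9 members lay above WT at an adjusted p under 0.05 with a difference of at most 2-fold, and no further member lay below. At an adjusted p under 0.05 alone, 19.8% of all genes lay above and 31.1% below. With edgeR and with DESeq2 the counts were 2 lower and 5 higher. The members' median log2 fold change was 0.35 and that of all genes -0.13. In GRCm38, *Hnrnph2* lies at chrX:134601179-134607060, *Hnrnpa3* at chr2:75659261-75669407, *Hnrnpa2b1* at chr6:51460932-51469894, *Hnrnpab* at chr11:51600100-51606847, *Hnrnph3* at chr10:63014664-63024217 and *Hnrnpul1* at chr7:25721165-25754757. On the ERCC-calibrated scale the same 6 members were called, against 28% of all genes called lower and 11.3% higher, and the members' median was 0.23 and that of all genes -0.25.

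**Figure D1:**
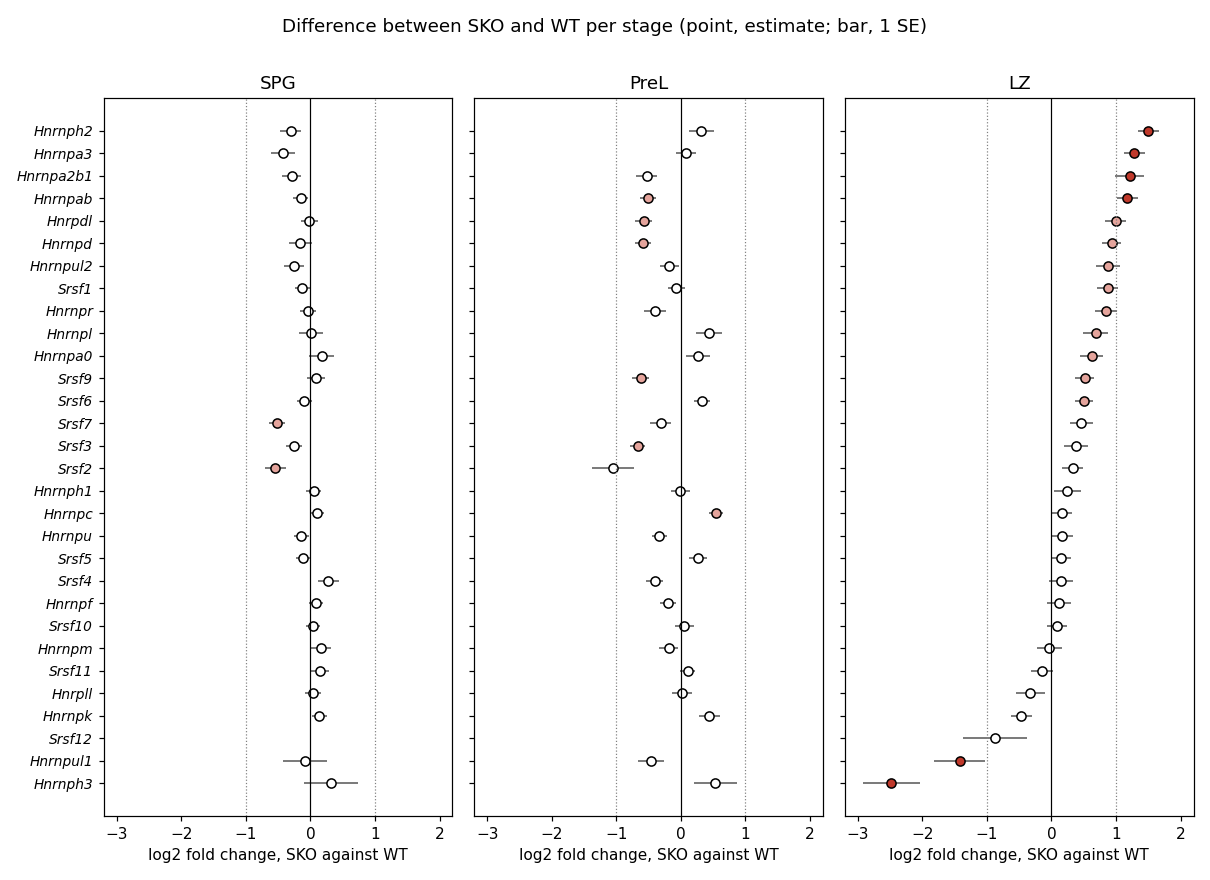
log2 fold change of SKO against WT (horizontal axis) for each tested member in SPG, PreL and LZ; points are estimates, bars 1 SE, dotted lines the 2-fold limits, filled red points called members and pale points members with an adjusted p under 0.05 only. Filled points appear in LZ alone, 4 above 0 and 2 below; the signs in SPG and PreL depend on the scaling.

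Whether the libraries overlapped was also counted over all 31 members, on the scaling of each stage. In SPG, every SKO library lay below every WT library for 4 members and above for none, where 14.4% and 15.2% of the genes tested did so. In PreL the counts were 12 below and 4 above, where 20.0% and 17.4% of genes did so. In LZ they were 4 below and 17 above, against 39.8% and 30.3% of genes. The members that separated downward in LZ were *Hnrnph3*, *Hnrnpul1*, *Hnrnpk* and *Srsf12*.

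Among the hnRNPs of the A/B type, *Hnrnpa2b1* had the highest level. Its SPG values were 26350, 39760 and 31020 in WT and 27390, 29060 and 23070 in SKO. It stood in PreL at 30450, 42330 and 42600 in WT and at 26340, 24290 and 27970 in SKO. The LZ libraries read 18530 and 25530 in WT against 54130, 49120 and 49490 in SKO. On the rescaled values the 3 SKO LZ libraries were the highest of all 17, the 2 WT LZ libraries included the lowest, and the genotypes overlapped only in SPG. In LZ this was a log2 fold change of 1.21 ± 0.23, adjusted p = 0.00368, a 2.31-fold difference. Without WT LZ replicate 2 the log2 fold change was 0.93, with adjusted p = 0.037. None of its 100-base stretches was found in another gene.

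*Hnrnpa3* is a close relative of *Hnrnpa2b1* and also binds transport elements. It read 2070, 3060 and 1891 in WT SPG and 1850, 1490 and 1863 in SKO SPG. In PreL it read 1316, 1631 and 1742 and 1722, 1691 and 1497. The LZ values were 1208 and 1162 in WT and 3099, 2556 and 3151 in SKO. The genotypes overlapped in PreL and were farthest apart in LZ, a log2 fold change of 1.28 ± 0.17, adjusted p = 0.000646. This gene is uncertain, because 90.2% of its 100-base stretches were shared with 25 other genes.

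*Hnrnpab*, the CArG box-binding factor A, is active in both transcription and mRNA handling. Its SPG libraries read 8095, 9445 and 9149 in WT and 8101, 8727 and 7492 in SKO. The PreL values were 10370, 12270 and 12810 in WT and 8251, 8297 and 8078 in SKO. By LZ they were 6017 and 5565 in WT and 14840, 12450 and 12510 in SKO. Relative to other genes, WT was thus above SKO in every PreL library and below it in every LZ library. The difference was a log2 fold change of 1.18 ± 0.17, adjusted p = 0.000894 in LZ and a log2 fold change of -0.51 ± 0.12, adjusted p = 0.0212 in PreL, and on the ERCC-calibrated scale the PreL value was 0.21 and the LZ value 1.05. Of its exon bases, 29.1% overlap those of *Phykpl*, and 23.25% of its 100-base stretches were shared with transcripts of 1 gene.

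*Hnrnpa0*, a small intronless member of this type, was at 1523 ± 234 (mean ± SD) in WT LZ and 2364 ± 178 in SKO LZ, a log2 fold change of 0.62 ± 0.18, adjusted p = 0.0211, under the 2-fold limit.

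The hnRNP D genes are the nearest relatives of *Hnrnpab*. *Hnrnpd* encodes AUF1, which binds AU-rich elements and affects mRNA decay. It read 4653, 7631 and 6177 in WT SPG and 6661, 5192 and 4740 in SKO SPG. For PreL the values were 6437, 7796 and 8129 in WT and 5081, 4648 and 5015 in SKO. For LZ they were 3345 and 3677 in WT and 6426, 7067 and 6862 in SKO. As for *Hnrnpab*, the genotypes overlapped in SPG, WT was above in PreL and SKO was above in LZ. The LZ difference, a log2 fold change of 0.94 ± 0.15, adjusted p = 0.00159, missed the fold limit, and the PreL difference was -0.59 ± 0.13 with adjusted p = 0.0146, or 0.14 on the ERCC-calibrated scale.

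*Hnrpdl* encodes the hnRNP D-like protein, a regulator of transcription and splicing. The gene read 7423, 10120 and 9450 in WT SPG and 8728, 8854 and 9165 in SKO SPG. Its PreL libraries read 13560, 15200 and 14780 in WT and 8993, 8808 and 11360 in SKO. Its LZ libraries read 6631 and 7085 in WT and 14840, 13610 and 13070 in SKO. The WT LZ libraries were the lowest of the 17, and the SKO LZ libraries reached the WT PreL range. *Hnrpdl* was the member closest to the fold limit in LZ, just outside it at 0.996 ± 0.16 with adjusted p = 0.00167, and was -0.58 ± 0.14 with adjusted p = 0.0192 in PreL, or 0.15 on the ERCC-calibrated scale.

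The hnRNP H/F genes, whose proteins bind runs of G, went in both directions in LZ. *Hnrnph2*, on the X chromosome, had SPG values of 2420, 3215 and 2732 in WT and 2603, 2372 and 1870 in SKO. Its values in PreL were 1547, 1723 and 2636 in WT and 2300, 2474 and 2344 in SKO. The WT LZ libraries stood at 1505 and 1420 and the SKO LZ libraries at 4667, 4160 and 3803. The genotypes overlapped in SPG and PreL and were separate in LZ, where every SKO value was above every other library of the series. The LZ difference was a log2 fold change of 1.503 ± 0.16, adjusted p = 0.000223, or 2.83-fold, and 15.1% of the gene's 100-base stretches were shared with 1 other gene.

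*Hnrnph3* lacks 1 of the RNA recognition motifs of its relatives and was the member with the largest fall. It stood at 106, 87.4 and 118 in WT SPG and 100.1, 129 and 185 in SKO SPG. PreL values were 191, 143 and 153 in WT and 173, 199 and 382 in SKO. LZ values were 245 and 354 in WT and 38.1, 74.3 and 41.8 in SKO. The 3 SKO LZ libraries were the lowest of all 17 and rested on 7, 21 and 10 reads, against 174 and 191 in WT LZ. This was a log2 fold change of -2.48 ± 0.44, adjusted p = 0.00269, and the same library group held the low late spermatocyte and spermatid markers given above.

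*Hnrnpf* and *Hnrnph1*, the abundant members of this type, did not pass in any stage. In LZ their log2 fold changes were 0.11 ± 0.19 and 0.25 ± 0.21, with adjusted p = 0.64 and 0.353. Of the 100-base stretches of *Hnrnpf*, 56.3% were shared with 10 other genes, which makes its level uncertain.

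*Hnrnpul1* and *Hnrnpul2* resemble hnRNP U, the nuclear scaffold protein, and act in the DNA damage response. *Hnrnpul1* read 316, 289 and 371 in WT SPG and 358, 427 and 189 in SKO SPG, which overlapped. The PreL libraries of *Hnrnpul1* read 408, 363 and 448 in WT and 288, 275 and 305 in SKO. The LZ libraries read 343 and 596 in WT, from 244 and 322 reads, and 114, 209 and 196 in SKO, from 21, 59 and 47 reads. SKO was below WT in all LZ libraries, and on the rescaled values also in all PreL libraries. On the ERCC-calibrated scale the PreL libraries overlapped, at 253.8 to 313.5 in WT and 300 to 383.8 in SKO. With rescaling, the LZ gap was a log2 fold change of -1.42 ± 0.40, adjusted p = 0.0203. Without WT LZ replicate 3 the value was -1.03 with adjusted p = 0.175, and without SKO LZ replicate 1 it was -1.15 with adjusted p = 0.0574, so the call rested on those libraries.

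*Hnrnpul2* lay on the other side. Its SPG values were 1985, 2751 and 2245 in WT and 2053, 1808 and 2031 in SKO, and its PreL values 1712, 1898 and 2275 and 1592, 1636 and 1932. In LZ it read 1362 and 1527 in WT and 2990, 2262 and 2863 in SKO. The genotypes overlapped until LZ, where all SKO libraries were above WT by a log2 fold change of 0.88 ± 0.19, adjusted p = 0.00608, under the fold limit. *Hnrnpu* itself was even, at 17400 ± 1257 (mean ± SD) in WT LZ and 19640 ± 614 in SKO LZ, a log2 fold change of 0.16 ± 0.17, adjusted p = 0.462.

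*Hnrnpr*, which has 3 RNA recognition motifs and acts in mRNA transport, read 3594, 4085 and 3837 in WT SPG and 3889, 3640 and 3813 in SKO SPG. Its PreL values were 2747, 3702 and 4461 in WT and a narrow 2639, 2728 and 2659 in SKO. The LZ values were 2011 and 2584 in WT and 4052, 4266 and 4137 in SKO. In PreL the lowest WT and the highest SKO library were nearly level, and in LZ the genotypes were apart, by a log2 fold change of 0.85 ± 0.17, adjusted p = 0.00453. *Hnrnpl*, which binds CA repeats, had 0.69 ± 0.19 with adjusted p = 0.0195 in LZ.

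*Hnrnpk*, a KH-domain protein, was the only abundant hnRNP with all SKO LZ libraries below WT. It read 17950 and 19590 in WT LZ and 14540, 13380 and 13270 in SKO LZ. In PreL the order was the reverse, at 18590, 14930 and 12820 in WT and 20070, 18750 and 23200 in SKO. Neither difference passed, with -0.47 ± 0.17 and adjusted p = 0.0506 in LZ, and 0.44 ± 0.16 and adjusted p = 0.086 in PreL. Of the 100-base stretches of *Hnrnpk*, 28.6% were shared with 3 other genes. *Hnrnpc*, which binds runs of U, had 0.54 ± 0.11 with adjusted p = 0.0101 in PreL, and 0.16 ± 0.16 with adjusted p = 0.424 in LZ. *Hnrnpm* and *Hnrpll* lay between -0.33 and 0.16 over the 3 stages, and neither passed.

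No Srsf gene was called by limma in any of the 3 stages. *Srsf1*, the founding SR protein, was the Srsf gene with the largest difference above WT in LZ. Its SPG values were 12390, 14780 and 12230 in WT and 12060, 11820 and 12540 in SKO, and its PreL values 11220, 12330 and 13770 and 11630, 10540 and 13170. The LZ values were 7538 and 8837 in WT and 14830, 15350 and 15040 in SKO. The genotypes overlapped in SPG and PreL and separated in LZ, by a log2 fold change of 0.87 ± 0.16, adjusted p = 0.00361, or 1.83-fold.

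*Srsf2* differed widely between libraries. It read 19780, 34560 and 23510 in WT SPG and 19100, 16310 and 17190 in SKO SPG. Its PreL libraries read 18010, 34610 and 50150 in WT and 14450, 12160 and 19610 in SKO. Its LZ libraries read 10470 and 11540 in WT and 14270, 13370 and 14210 in SKO. WT PreL spanned a wide range, with its lowest library under the highest SKO library. The SPG difference was a log2 fold change of -0.54 ± 0.16, adjusted p = 0.0484, and the PreL difference a log2 fold change of -1.05 ± 0.33, adjusted p = 0.0554, which missed the threshold here and passed with edgeR, DESeq2, TMM scaling, 1 fit of all libraries, and without WT PreL replicate 1 or SKO PreL replicate 3. *Srsf2* shares 25.3% of its exon bases with *Mettl23* and *Mfsd11*. Of its 100-base stretches, 30.6% were shared with transcripts of 2 genes.

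*Srsf7* read 12110, 10300 and 9933 in WT SPG and 7041, 7190 and 8543 in SKO SPG. The PreL values of *Srsf7* were 24490, 16650 and 15980 in WT and 15440, 14070 and 15330 in SKO, and the LZ values 13230 and 15290 and 18300, 21280 and 20050. Relative to other genes, SKO was below WT in all SPG and PreL libraries and above it in all LZ libraries. Of these differences only that in SPG had an adjusted p under 0.05 (a log2 fold change of -0.52 ± 0.13, adjusted p = 0.0169).

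*Srsf3*, a small SR protein that couples splicing to export, stood at 24250, 24210 and 26930 in WT PreL and 15790, 14710 and 16590 in SKO PreL, with no overlap. This was a log2 fold change of -0.67 ± 0.12, adjusted p = 0.00645, and 0.05 on the ERCC-calibrated scale. Of the 100-base stretches of *Srsf3*, 20.7% were shared with 3 other genes. *Srsf9* read 5393, 6934 and 6168 in WT PreL and 3826, 4192 and 3845 in SKO PreL, a log2 fold change of -0.63 ± 0.13, adjusted p = 0.0116, and 0.10 on the ERCC-calibrated scale. In LZ both genes had values above 0, 0.38 ± 0.18 with adjusted p = 0.117 for *Srsf3* and 0.51 ± 0.15 with adjusted p = 0.0224 for *Srsf9*.

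*Srsf6*, which binds purine-rich enhancers, had 0.51 ± 0.15 with adjusted p = 0.0216 in LZ. *Srsf4*, *Srsf5*, *Srsf10* and *Srsf11* lay between -0.15 and 0.15 in LZ, and none of these 4 had an adjusted p under 0.05 in any stage. *Srsf4* is uncertain, since 62.5% of its 100-base stretches were shared with 1 other gene and 43.0% of its exon bases overlap *Gm12992*.

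The second comparison followed the members from stage to stage within a genotype. From SPG to PreL in WT no member of 29 was called, 0 lower and 0 higher, against 1.21% of genes called lower and 2.54% higher. At an unadjusted p under 0.05 limma gave 5 lower and 5 higher, and edgeR and DESeq2 called no member. *Hnrpdl*, *Srsf3* and *Srsf7* had an adjusted p under 0.05 above SPG, at log2 fold changes of 0.67 ± 0.14, 0.61 ± 0.14 and 0.76 ± 0.17, and *Hnrnpc* below, at -0.45 ± 0.11, where 4.27% of all genes lay above and 3.02% below at that threshold. In SKO the same step gave 0 lower and 0 higher, against 0.955% and 1.63% of genes. At an unadjusted p under 0.05 limma gave 5 lower and 3 higher, and edgeR and DESeq2 called no member. *Srsf7* passed the limit on the p and lay just outside that on the fold, at 0.999 ± 0.12 with adjusted p = 0.00448. At an adjusted p under 0.05 alone, 1 member lay above SPG and 1 below, against 2.97% and 2.65% of all genes. These counts are relative to other genes. On the ERCC-calibrated scale the SKO step had 16 of 29 members called higher and 0 lower, against 43.9% and 0.233% of all genes.

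From PreL to LZ in WT, 4 of 30 members were called lower and 0 higher, where 7.8% of genes were called lower and 18.8% higher. At an unadjusted p under 0.05 limma gave 15 lower and 0 higher, and edgeR and DESeq2 each called 4 lower and 0 higher. The members called by limma were *Srsf2*, *Hnrpdl*, *Hnrnpd* and *Hnrnpab*. In the values given above, the WT LZ libraries of each lay below all its WT PreL libraries. The log2 fold changes were -1.66 ± 0.37 for *Srsf2* (adjusted p = 0.00991), -1.22 ± 0.18 for *Hnrpdl* (0.00255), -1.22 ± 0.19 for *Hnrnpd* (0.00295) and -1.17 ± 0.19 for *Hnrnpab* (0.00314). Without WT LZ replicate 2 or 3 the adjusted p of *Srsf2* was 0.0867 or 0.0807. Without WT LZ replicate 3, 5 members were called lower and 0 higher, and the shares of all genes were 6.76% lower and 5.87% higher. A further 8 members lay below PreL at an adjusted p under 0.05, and no member lay above, where 14.2% of all genes lay below and 20.5% above. The members' median was -0.53 and that of all genes 0.13.

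These falls are relative to the other genes. On the ERCC-calibrated scale the median of all genes was 1.86 in this step and the members' median 1.297. The 4 called members were then above 0, at 0.67 for *Hnrnpab*, 0.61 for *Hnrnpd*, 0.61 for *Hnrpdl* and 0.17 for *Srsf2*, and 23 of 30 members were called higher and 0 lower, against 79.9% and 0.109% of all genes. After the median of all genes was subtracted, 1 of 30 members differed in sign between the scalings.

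The promoters of the 4 members called lower in this step are shown. Whether they bear on the fall was not tested. They are RefSeq promoters of GRCm38.p6, from 250 bases before to 50 bases after the transcription start, all on the minus strand and written 5′ to 3′ along the gene. Capitals mark the GC box, GGGCGG, on either strand, where copies may overlap. The positions are chr5:99978889-99979188 for *Hnrnpd*, chr5:100039173-100039472 for *Hnrpdl*, chr11:51606832-51607131 for *Hnrnpab* and chr11:116853045-116853344 for *Srsf2*. In GENCODE M21 *Hnrpdl* reaches chr5:100039664 and starts farther upstream, so its RefSeq stretch lies inside the annotated gene.
Hnrnpd: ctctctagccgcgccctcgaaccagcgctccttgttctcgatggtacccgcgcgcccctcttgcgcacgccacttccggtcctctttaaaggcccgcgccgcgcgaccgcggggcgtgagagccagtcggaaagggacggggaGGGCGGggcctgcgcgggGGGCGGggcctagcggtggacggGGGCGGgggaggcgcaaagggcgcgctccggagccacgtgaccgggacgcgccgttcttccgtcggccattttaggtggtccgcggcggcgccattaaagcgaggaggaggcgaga
Hnrpdl: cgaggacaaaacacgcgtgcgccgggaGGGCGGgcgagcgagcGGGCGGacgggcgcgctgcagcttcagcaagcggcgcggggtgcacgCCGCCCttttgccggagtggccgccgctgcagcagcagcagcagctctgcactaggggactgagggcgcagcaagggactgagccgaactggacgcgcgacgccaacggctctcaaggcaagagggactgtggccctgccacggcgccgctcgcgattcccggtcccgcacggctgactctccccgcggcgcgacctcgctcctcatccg
Hnrnpab: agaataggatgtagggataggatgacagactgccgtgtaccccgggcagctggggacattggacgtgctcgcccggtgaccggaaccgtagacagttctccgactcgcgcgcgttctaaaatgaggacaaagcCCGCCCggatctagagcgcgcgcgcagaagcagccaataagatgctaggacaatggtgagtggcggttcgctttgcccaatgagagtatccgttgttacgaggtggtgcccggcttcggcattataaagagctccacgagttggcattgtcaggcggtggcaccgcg
Srsf2: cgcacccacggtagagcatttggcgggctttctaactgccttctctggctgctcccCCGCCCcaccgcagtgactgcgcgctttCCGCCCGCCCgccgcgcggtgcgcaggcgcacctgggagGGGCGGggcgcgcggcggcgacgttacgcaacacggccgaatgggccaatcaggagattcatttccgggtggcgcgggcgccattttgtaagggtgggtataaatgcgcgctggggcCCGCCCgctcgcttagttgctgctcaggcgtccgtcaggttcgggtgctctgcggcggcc

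*Hnrnpd* and *Hnrpdl* are neighbours on chromosome 5. The promoters held 3 GC boxes in *Hnrnpd*, 3 in *Hnrpdl*, 1 in *Hnrnpab* and 5 in *Srsf2*, and their G and C content was 72.3%, 72.7%, 58.3% and 69.3%. A GC box was found in a promoter of 24 of the 29 members with an entry (82.8%), and in a promoter of 38.2% of the 27025 genes in the table. It was in 35.7% of the 32851 single promoters. These promoters were not limited to genes tested here, so the shares do not set the members against expressed genes alone. *Hnrnpul2* and *Hnrpll* had no entry.

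The promoter of *Hnrnph3*, the member with the largest fall in SKO LZ, is at chr10:63023800-63024099 on the minus strand. In GENCODE M21 the gene reaches chr10:63024217 and starts farther upstream, so this RefSeq stretch lies inside the annotated gene. The promoter is shown in the same way for comparison.
Hnrnph3: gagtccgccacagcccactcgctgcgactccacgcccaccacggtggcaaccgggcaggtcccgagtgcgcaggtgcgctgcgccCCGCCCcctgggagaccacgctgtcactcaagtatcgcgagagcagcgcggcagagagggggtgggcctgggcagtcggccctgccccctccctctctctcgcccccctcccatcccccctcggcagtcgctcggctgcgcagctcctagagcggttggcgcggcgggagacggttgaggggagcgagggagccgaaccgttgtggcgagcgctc

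It held 1 GC box, and 73.0% of its bases were G or C.

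In SKO the step from PreL to LZ took another course. Of 29 members, 1 was called lower and 0 higher, where 6.93% of genes were called lower and 10.6% higher. At an unadjusted p under 0.05 limma gave 4 lower and 14 higher, and edgeR and DESeq2 each called 1 lower and 0 higher. The called member was *Hnrnph3*, with a log2 fold change of -2.15 ± 0.40, adjusted p = 0.0034. At an adjusted p under 0.05 alone, 12 members lay above PreL and 4 below, where 17.8% of all genes lay above and 19.1% below. *Srsf2*, *Hnrpdl*, *Hnrnpd* and *Hnrnpab*, the 4 members that fell in WT, were at -0.15 ± 0.19, 0.48 ± 0.15, 0.43 ± 0.11 and 0.65 ± 0.12. The members' median was 0.28 and that of all genes -0.01. On the ERCC-calibrated scale the median of all genes was 0.81, and 18 members were called higher and 1 lower, against 35.3% and 1.22% of all genes.

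The difference between the genotype effects in LZ and PreL was tested itself, as an interaction in 1 fit of 17 libraries with no fold limit. Its size is estimated in that fit, so it can depart a little from the effects below, which were fitted per stage. Of 29 members, 15 passed the test (adjusted p under 0.05) with a difference above 0 and 2 with one below 0, where 15.1% of all genes passed above and 23.1% below. With edgeR the shares of all genes were 16.8% above and 15.8% below, and without WT LZ replicate 3 they were 13.5% and 14.6%, with 16 members above and 2 below in both. The 15 differences above 0 belonged to the A/B and D genes *Hnrnpa2b1*, *Hnrnpab*, *Hnrpdl*, *Hnrnpd* and *Hnrnpa3*, to *Hnrnph2*, *Hnrnpr*, *Hnrnpul2* and *Hnrnpu*, and to *Srsf1*, *Srsf2*, *Srsf3*, *Srsf4*, *Srsf7* and *Srsf9*. The 2 below 0 were *Hnrnph3* and *Hnrnpk*.

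For *Hnrnpa2b1* the effect was -0.53 ± 0.16 in PreL, which did not pass in limma (adjusted p = 0.0517), and 1.21 ± 0.23 in LZ. The difference was 1.76 ± 0.26 (adjusted p = 3.15e-05). For *Hnrnpab* the effect went from -0.51 to 1.18, a difference of 1.71 ± 0.18 (adjusted p = 4.12e-07). *Hnrpdl* went from -0.58 to 0.996 (1.60 ± 0.19, adjusted p = 3.57e-06) and *Hnrnpd* from -0.59 to 0.94 (1.54 ± 0.24, adjusted p = 6.04e-05). In these 4 genes the sign turned between the stages, except on the ERCC-calibrated scale, where their PreL values were 0.14 to 0.21. *Hnrnph3* went from 0.53 to -2.48 (-2.88 ± 0.57, adjusted p = 0.000591) and *Hnrnpk* from 0.44 to -0.47 (-0.88 ± 0.20, adjusted p = 0.00237).

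Of the Srsf genes, *Srsf2* went from -1.05 to 0.33 (1.40 ± 0.40, adjusted p = 0.0094), *Srsf9* from -0.63 to 0.51 and *Srsf3* from -0.67 to 0.38. The effects were -0.32 and 0.46 for *Srsf7*, -0.07 and 0.87 for *Srsf1*, and -0.41 and 0.15 for *Srsf4*. For the remaining hnRNP genes they were -0.41 and 0.85 for *Hnrnpr*, 0.08 and 1.28 for *Hnrnpa3*, 0.31 and 1.503 for *Hnrnph2*, -0.18 and 0.88 for *Hnrnpul2*, and -0.33 and 0.16 for *Hnrnpu*. On the ERCC-calibrated scale, where the median of all genes was -1.12, the test was passed by 3 members above 0 and 10 below, against 5.54% and 48.6% of all genes, and *Hnrnpu*, *Srsf4* and *Srsf7* turned negative.

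**Figure D2:**
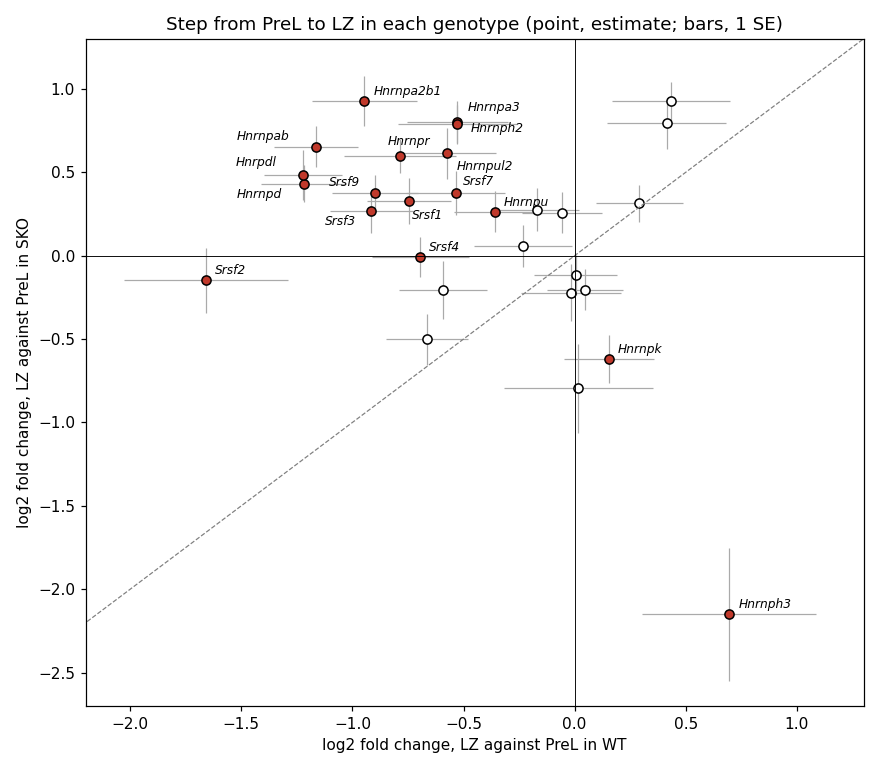
log2 fold change of LZ against PreL in WT (horizontal axis) and in SKO (vertical axis) for 29 members; points are estimates, bars 1 SE, the dashed line marks equal change, and red points are members whose genotype effect differed between LZ and PreL. On this scale 15 red points lie above the line and *Hnrnpk* and *Hnrnph3* below; on the ERCC-calibrated scale *Hnrnpu*, *Srsf4* and *Srsf7* change sides.

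Other genes of the splicing machinery were counted from lists written by role, with the LZ comparison, where 25.8% of all genes were called lower and 13.4% higher. Of 34 tested proteins of the U ribonucleoproteins, which recognise splice sites and form the core of the spliceosome, 3 were called lower and 3 higher, with a median log2 fold change of -0.05. The largest in each direction were *Lsm2* (-1.71 ± 0.22, adjusted p = 0.000547) and *Snrpa* (-1.12 ± 0.18, adjusted p = 0.00149) below, and *Snrnp70* (1.25 ± 0.21, adjusted p = 0.00217) and *Lsm5* (1.21 ± 0.18, adjusted p = 0.00109) above. Of 18 factors of the branch point and the 3′ splice site, 1 was called higher and 0 lower (median -0.04), namely *U2af2* (1.22 ± 0.18, adjusted p = 0.00129), which binds the polypyrimidine tract.

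The complex around PRP19 and the factors of the catalytic steps had 4 of 21 called higher and 1 lower (median 0.07). *Bcas2* (3.29 ± 0.32, adjusted p = 0.000153) and *Prpf18* (2.43 ± 0.29, adjusted p = 0.000439) were the largest above WT, and *Ctnnbl1* (-1.26 ± 0.21, adjusted p = 0.002) was below. Among 20 SR-related proteins and SR protein kinases, 2 were called in each direction (median 0.02). *Scaf11* (2.23 ± 0.20, adjusted p = 0.000108) and *Tra2a* (1.25 ± 0.19, adjusted p = 0.00136), both with domains rich in arginine and serine, were higher. *Srpk1* (-2.08 ± 0.22, adjusted p = 0.000217) and *Srpk2* (-1.19 ± 0.17, adjusted p = 0.0009), the kinases that phosphorylate SR proteins in the cytoplasm, were lower.

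Of 41 other RNA-binding regulators, 7 were called higher and 3 lower (median 0.37). *Mbnl1* (1.71 ± 0.40, adjusted p = 0.00952) was among those above WT, and *Pcbp3* (-2.26 ± 0.44, adjusted p = 0.00436) and *Pcbp2* (-1.56 ± 0.26, adjusted p = 0.00186) had the largest values below. In the exon junction complex, which marks spliced junctions, 2 of 5 were called higher and 0 lower (median 0.55), *Magoh* (1.20 ± 0.16, adjusted p = 0.000672) and *Magohb* (1.07 ± 0.16, adjusted p = 0.00117). In SPG, of 138 tested genes of these 6 lists, 2 were called higher and 0 lower, where 3.95% of all genes were called higher and 2.06% lower. In PreL, of 138 tested, 1 was called lower and 4 higher, where 5.83% of all genes were called lower and 5.32% higher.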

How the data were processed

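Polyadenylated RNA had been sequenced from sorted SPG, PreL and LZ cells of both genotypes. The authors mapped trimmed reads to mm10 and used HTSeq 0.11.2 to count those that mapped uniquely. Per the labels, the submitters' processing notes also name mm9, TopHat2 2.1.1, Cufflinks 2.2.1 and DESeq2. Whether strand was used is not given in the sources used here, so antisense reads cannot be told apart. The deposited signal is these counts times a calibration factor of each library, for its cell number and ERCC RNA. All values (100%) were whole multiples of the library's smallest value within 0.02, which gave the recovered reads. They numbered 5812380 to 13820953 per library, and the fewest lay in SKO LZ.

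Symbols were matched to GENCODE M21 for GRCm38, 20857 directly, 1967 by an older symbol and 458 not at all. All 31 members were matched. In each comparison, values were divided by size factors (median of ratios) of its own libraries. log2(value + 10) was tested with limma 3.58.1 (lmFit, eBayes with trend, R 4.3.3), keeping genes that averaged 10 recovered reads or more. p-values were two-sided and Benjamini-Hochberg adjusted over all genes tested. Groups followed the sample labels. The tests were tried on simulated data.

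Alternatives were TMM scaling or the ERCC-calibrated values as deposited, a pseudocount of 1 or 50, a read minimum of 0 or 50, edgeR 4.0.16 and DESeq2 1.42.0 on recovered reads, 1 fit of 17 libraries, no fold threshold, a replicate block, removal of trends with transcript length and GC content (lowess span 0.3), a share without the 100 genes with the highest mean, and each replicate left out.

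The members, gene lists and tests were chosen with earlier results of these data known. Library values are given for members called between the genotypes, filled up to 12 by the size of the LZ difference, and for the 3 highest and 3 lowest by length. *Srsf3*, *Srsf9* and *Hnrnpk* are also shown by library, chosen after their values were seen. Of each gene list, the called genes with the 2 largest LZ changes in each direction are named, except one result that is not reported here. Isoforms and protein sequences were not analysed here.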

Additional observations from a re-analysis of the deposited data

Results flagged for a closer look

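For 17 members the effect of the genotype differed between LZ and PreL in the interaction test (limma, 1 fit of 17 libraries, adjusted p under 0.05). The LZ effect minus the PreL effect, in log2 units, was 1.76 for *Hnrnpa2b1*, 1.71 for *Hnrnpab*, 1.60 for *Hnrpdl*, 1.54 for *Hnrnpd*, 1.22 for *Hnrnpa3*, 1.28 for *Hnrnpr*, 1.21 for *Hnrnph2*, 1.08 for *Hnrnpul2* and 0.52 for *Hnrnpu*. Among the Srsf genes it was 1.40 for *Srsf2*, 1.16 for *Srsf9*, 1.07 for *Srsf3*, 0.96 for *Srsf1*, 0.80 for *Srsf7* and 0.58 for *Srsf4*. Below 0 it was -2.88 for *Hnrnph3* and -0.88 for *Hnrnpk*. Of all genes tested, 15.1% passed this test with a difference above 0 and 23.1% with one below. The largest adjusted p of the 17 was that of *Srsf4*, 0.0404. The markers of late spermatocytes and spermatids also differed between the genotypes more in LZ than in SPG, with medians of -4.98 and -5.84 in LZ, -2.52 and -4.44 in PreL, and -0.75 and -2.96 in SPG, and the summed early meiotic markers were above WT in SKO PreL and below it in SKO LZ; the part of these cells in these differences was not tested.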

How the results depend on the processing

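The 2 lower and 4 higher calls in LZ kept within 1.5 times of their number under every alternative except no fold threshold (13 higher) and single libraries left out (1 to 3 lower, 3 to 7 higher). *Hnrnpul1* lost its call without WT LZ replicate 3 or SKO LZ replicate 1, and *Hnrnpa2b1* without WT LZ replicate 2. The ERCC-calibrated scale gave 6 members higher in PreL (26.3% of all genes); 0 lower and 23 higher for the WT step into LZ (0.109% and 79.9%); 16 higher for SKO PreL against SPG (43.9%); 18 higher for the SKO step into LZ (35.3%); and 10 below and 3 above 0 for the interaction (48.6% and 5.54%). It moved the median of all genes to -0.25, 0.73 and -0.25 for SKO against WT in SPG, PreL and LZ, and to 0.08, 1.86, 1.005, 0.81 and -1.12 for the WT steps to PreL and to LZ, the SKO steps to PreL and to LZ, and the interaction. Signs turned there for *Hnrnpab* (0.67), *Hnrnpd* (0.61), *Hnrpdl* (0.61) and *Srsf2* (0.17) in the WT step into LZ, and for *Hnrnpu* (-0.36), *Srsf4* (-0.29) and *Srsf7* (-0.071) in the interaction. The cause was not tested. Relative to the median of all genes, the largest shift of a member was 0.282.

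Without a fold threshold, 2 members were lower in SPG (4.84% of all genes), 5 lower and 1 higher in PreL (10% and 7.87%), 1 lower and 3 higher for WT PreL against SPG (3.02% and 4.27%), 12 lower for the WT step into LZ (14.2%), 1 lower and 1 higher for SKO PreL against SPG (2.65% and 2.97%), and 4 lower and 12 higher for the SKO step into LZ (19.1% and 17.8%). edgeR, DESeq2, TMM and 1 fit of 17 libraries each gave 1 member lower in PreL, *Srsf2*. Leaving out single libraries gave 0 to 1 lower in PreL and 0 to 1 higher for SKO PreL against SPG. The share of all genes called higher in PreL, 5.32%, was 1.38% without SKO PreL replicate 1 and 8% without SKO PreL replicate 3, and that called higher in the WT step into LZ, 18.8%, was 5.87% without WT LZ replicate 3. *Srsf4* lost its interaction without WT PreL replicate 1 or 4, WT LZ replicate 2 or any SKO PreL or SKO LZ library, and *Hnrnpu* without WT PreL replicate 4, SKO PreL replicate 1 or WT LZ replicate 2. The 100 genes with the highest mean of a stage include *Hnrnpa2b1*, and in SPG and PreL also *Srsf2*. Without them, the share of the remaining members was 1.23% in WT PreL and 1.25% in SKO LZ.

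Same-numbered libraries correlated from -0.188 to 0.131 in their deviations, so the numbers were not read as pairs. With the replicate block, 1 member (*Srsf7*) was higher for SKO PreL against SPG and *Srsf4* lost its interaction (0.51, adjusted p = 0.0969); no other named call changed. The block was not run for the WT step into LZ, whose groups share 1 number. Depth limits *Hnrnpa1* and *Srsf12*, and *Hnrnph3* in SKO LZ, where *Hnrnpul1* also rested on only 21 to 59 reads.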
